A study of Mus musculus with 4 samples.

Results

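Macrophage identity and state genes were followed through Xenium in situ sections of mouse skin, day 4 skin wounds and buccal mucosa. The 9 genes, *C1qa*, *Mrc1*, *Mgl2*, *Pf4*, *Ms4a7*, *Csf1r*, *Cd68*, *Lyz2* and *C3ar1*, were taken by name from the 328 genes of the panel. Xenium reads single transcripts in place in a 5 µm section of fixed tissue, with probes to a fixed set of genes, and assigns each to a segmented cell. The mice carried TRE-*Pitx1* and *Krt5*-rtTA transgenes, in which the *Krt5* promoter, active in basal keratinocytes, drives a doxycycline-dependent activator of *Pitx1*. Both unwounded and wounded skin came from littermates given normal chow (Control, vehicle) or doxycycline chow for 6 weeks (PITX1+), so that the Control animals carried the transgenes as well. Buccal mucosa, the lining of the cheek, came from Control animals given vehicle, males and females together on 1 slide. The other slides held male unwounded dorsal skin, female unwounded dorsal skin and male dorsal skin 4 days after full-thickness wounding. Ages are not given in the labels.

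The labels name the slide and not the section, so each section received its condition from its place on the slide. There were 3 Control sections (1 and 2 on the female slide, 3 on the male slide), 4 PITX1+ sections (1 and 2 female, 3 and 4 male), 7 buccal sections, 1 Control wound and 2 PITX1+ wounds. The fixed wounds had been cut at the midline, and the labels tie no section to an animal. The p-values below measure the spread between sections. Slide and sex are the same variable in skin, and tissue, wounding and slide cannot be told apart.

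Macrophages are tissue-resident or blood-derived phagocytes that clear dying cells, take up foreign material and direct repair in skin and mucosa. The growth factor receptor encoded by *Csf1r* is needed by most of them, while complement component *C1qa*, the mannose receptor *Mrc1* and the galactose-type lectin *Mgl2* are known for resident and reparative forms. *Lyz2* and *Cd68* are shared with other phagocytes, since neutrophils also make lysozyme, and *Pf4*, *Ms4a7* and *C3ar1* are used to tell macrophages from dendritic cells.

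Promoter sequences are shown for a lectin gene, a complement receptor gene and the lysozyme gene, which results below turn on. Entries of the RefSeq promoter table (GRCm38.p6, 250 bases before to 50 after the start) were used for 7 of the 9 genes, without *C1qa* and *Csf1r*. For the 9 genes entries on 1 chromosome were left out, a filter not applied to the counts for all promoters and other panel genes. Capitals mark AGGAAG or its reverse complement CTTCCT, a core of the kind bound by ETS factors such as the macrophage factor PU.1, searched on both strands. The *Mgl2* window is chr11:70130107-70130406 on the plus strand, the *C3ar1* window chr6:122856108-122856407 and the *Lyz2* window chr10:117282223-117282522, both on the minus strand.
Mgl2: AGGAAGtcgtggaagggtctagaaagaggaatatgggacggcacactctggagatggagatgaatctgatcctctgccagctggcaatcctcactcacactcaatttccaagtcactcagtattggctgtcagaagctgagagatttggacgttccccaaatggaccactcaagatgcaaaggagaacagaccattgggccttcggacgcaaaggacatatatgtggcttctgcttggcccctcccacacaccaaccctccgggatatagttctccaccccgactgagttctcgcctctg
C3ar1: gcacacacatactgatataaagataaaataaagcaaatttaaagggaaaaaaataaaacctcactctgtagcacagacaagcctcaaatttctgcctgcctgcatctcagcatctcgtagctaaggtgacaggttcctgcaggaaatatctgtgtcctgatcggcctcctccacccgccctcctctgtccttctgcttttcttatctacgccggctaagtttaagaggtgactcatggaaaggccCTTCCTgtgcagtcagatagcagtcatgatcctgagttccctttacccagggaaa
Lyz2: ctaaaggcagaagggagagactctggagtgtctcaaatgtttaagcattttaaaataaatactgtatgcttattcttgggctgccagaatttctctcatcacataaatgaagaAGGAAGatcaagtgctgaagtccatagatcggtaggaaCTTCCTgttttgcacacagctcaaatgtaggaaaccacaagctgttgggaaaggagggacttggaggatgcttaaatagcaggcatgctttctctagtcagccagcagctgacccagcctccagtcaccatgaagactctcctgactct
The letters occurred in windows of 5 of the 7 genes, namely *Mrc1* (3 matches), *Lyz2* (2 matches), *Mgl2*, *Pf4* and *C3ar1* (1 match each). They did not occur in the window of *Cd68* or in either of the 2 windows of *Ms4a7*. They were held by 35.4% of all 32851 promoters in that set, counted by window, and by 48.7% of the 228 other panel genes with an entry. A match describes these letters and not a bound site.

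Sections held 136365 to 5581930 panel transcripts in cells, the lowest in Buccal mucosa 3, with 474847 to 749248 in Control skin and 2832562 to 5581930 in PITX1+ skin. Of 514895 cells, 426404 held at least 10 transcripts and were used for shares of cells, and 25 of 514870 cell names occurred on more than 1 slide. Levels are given as CPM, the transcripts of a gene scaled to a common total of panel transcripts in the cells of a section. *Pitx1* reached 722 and 436 CPM in the male PITX1+ sections against 12.6 in the male Control section. On the female slide it was 53.6 and 63.2 CPM in the sections placed as PITX1+ and 74.7 and 54.1 in those placed as Control, so *Pitx1* counts did not separate them, and every PITX1+ direction below rests on placement there. The cell totals of the female sections lay within 0.0856% to 0.332% of a total listed by the study for their condition. They lay 9.08% to 299% from the nearest total of another condition. A negative control probe collected 330 transcripts on average on the female slide, where *Pf4* collected 1010 in all, against 79.7 and 3652 on the male slide. The highest such probe collected 1332 on the female and 601 on the male slide, so *Pf4* on the female slide lay within the range of the background probes. *Pitx1* did so there too, with 56 and 27 transcripts in the sections placed as Control and 184 and 353 in those placed as PITX1+. Its counts thus do not show whether the transgene was expressed on the female slide. Buccal mucosa 3 held 24 cells with keratinocyte markers.

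The 9 genes were found together in single cells more often than their separate shares would give. Among cells with at least 10 transcripts, 175225 held at least 1 of the genes, 96413 at least 2, 59063 at least 3 and 242 all 9. For each pair, the number of cells with both was divided by the number expected if the genes fell independently within each section. All 36 pairs were above 1 in each of the 5 groups of sections. Over all sections the median ratio was 2.81, and it was 2.98 when every cell was thinned to 20 transcripts, which leaves out 61612 shallower cells. The median was 6.39 in buccal mucosa, or 7.89 thinned and 6.48 over all cells, and 2.27, 2.20 and 2.88 in the PITX1+ wounds. Control skin had 3.54, 3.75 thinned and 3.904 over all cells, PITX1+ skin 3.51, 4.22 and 3.61, and the Control wound 2.66, 2.51 and 4.65. A ratio cannot exceed the inverse of the share of the commoner gene, and *Lyz2* was in 40.8% and 48.0% of cells of the PITX1+ wounds but in 9.35% to 22.6% of buccal cells, so the ratios below do not rank groups or pairs. These values are descriptions, since cells of a section also share its depth and its cell density.

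*Pf4*, a chemokine of platelets and macrophages, was found with *Ms4a7*, a membrane-spanning protein of macrophages, in 3952 cells over all sections against 942 expected, a ratio of 4.19. *Mrc1* with *Mgl2* had a ratio of 4.07, with 10837 cells against 2663 expected. *Cd68*, a lysosomal membrane protein, with *Lyz2*, the commonest of the 9, had 1.92. Over all pairs the ratio ran from 1.92 to 4.19, and from 2.15 (*Csf1r* with *Cd68*) to 5.05 (*Mrc1* with *Mgl2*) after thinning, so the pairs at the ends depended on depth. In buccal mucosa it was 2.37 for *Cd68* with *Lyz2* and 17.1 for *Ms4a7* with *C3ar1*, the receptor of complement fragment C3a, and the thinned ratios ran up to 15.0, for *Mrc1* with *Ms4a7*. In Control skin it ranged from 1.62 for *Mgl2* with *C3ar1* to 6.05 for *Pf4* with *Ms4a7*. Over all sections *Lyz2* was present in 79.0% of cells with *Pf4*, 76.9% of cells with *Ms4a7* and 56.5% of cells with *Mgl2*. On the female slide it was in 45.9% of cells with *Ms4a7* and 36.5% of cells with *Mgl2*, below *C1qa* at 58.4% and 49.3%.

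**Figure D1:**
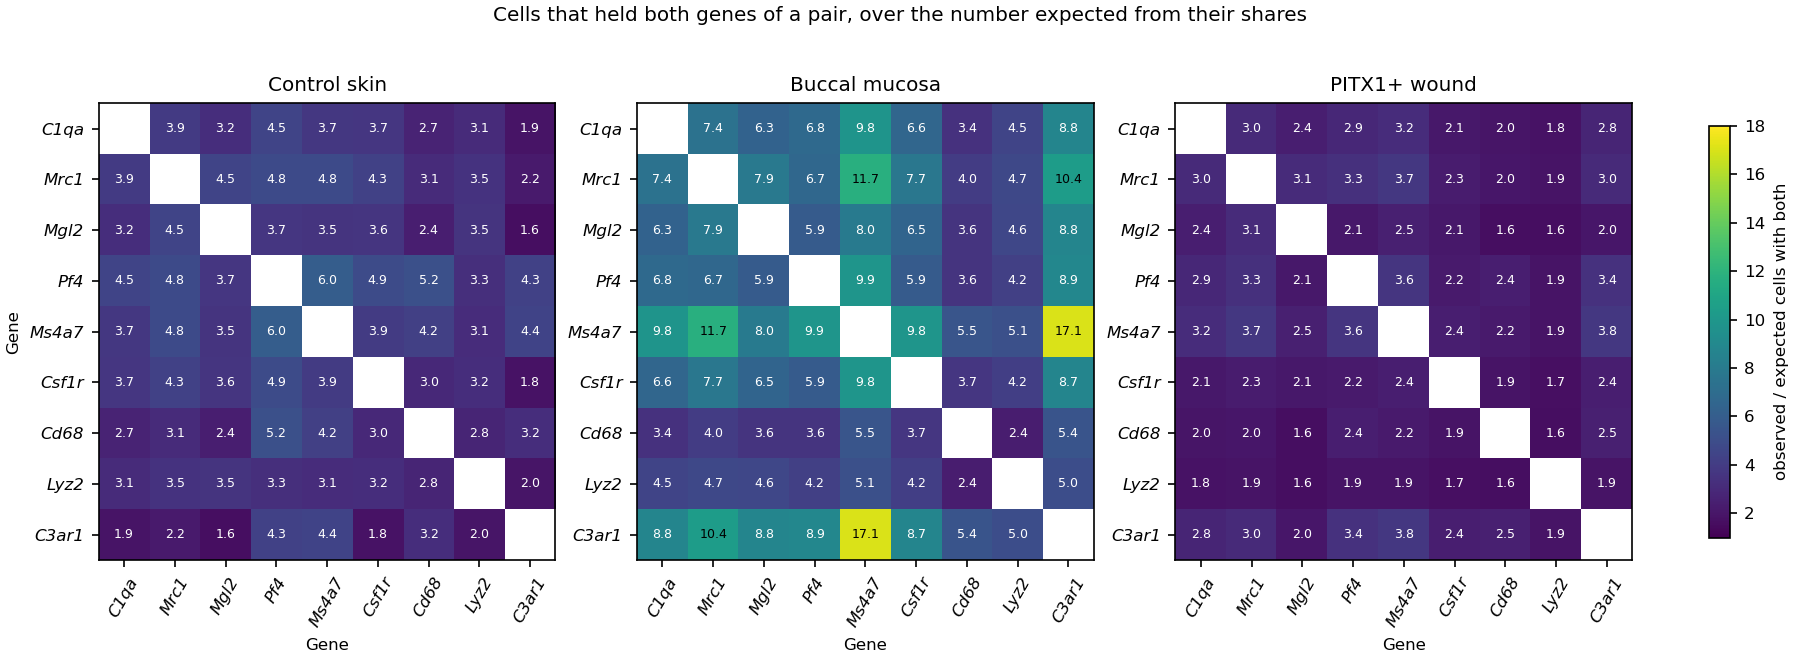
Ratio of observed to expected cells holding both genes of a pair (colour scale and printed values) for the 9 genes in Control skin, buccal mucosa and PITX1+ wounds, from cells with at least 10 transcripts. Every pair lies above 1. The values have a ceiling that falls as a gene becomes common, so colours are not to be ranked between panels.

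Genes of other cell types varied in how often they shared a cell with the 9 genes. The basal keratinocyte keratin *Krt5* was found with them at 0.24 to 0.62 of the expected number, lowest with *Mrc1* and highest with *Cd68*. The T cell receptor component *Cd3g* stood at 0.88 to 1.47 above 1 with 7 of the 9, and the neutrophil chemokine receptor *Cxcr2* at 0.74 to 1.39. The fibroblast collagen *Col1a1* (1.18 to 1.48) and the mast cell protease *Mcpt4* (1.28 to 1.96) were above 1 with all 9. The protease *Ctss*, which phagocytes share, stood at 2.13 to 3.02.

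Among the other panel genes, the 3 with the highest ratio were named for each of the 9 genes. Nearest below refers to this ratio alone, which can run higher for rarer genes and does not rank how often genes share cells. *Retnla* was in 5.20% of cells with *C1qa* at a ratio of 4.00, and *Ctss* in 60.5% at 2.47. The lectin *Cd209f* and the resistin-like protein *Retnla* were each among the nearest 3 for 8 of the 9. For *Mrc1* the nearest were *Cd209f* (4.53), *Retnla* (4.04) and the chemokine *Ccl8* (3.71), and for *C1qa* *Retnla* (4.00), *Cd209f* (3.76) and *Ccl8* (3.20). *Mgl2* lay nearest to *Retnla* (4.33), the monocyte chemokine receptor *Ccr2* (4.26) and *Cd209f* (4.11). *Pf4* lay nearest to *Cd209f* (4.87), *Retnla* (4.57) and the hyaluronan receptor *Lyve1* (4.48), which also marks lymphatic vessels. *Ms4a7* had the chemokine *Ccl12* (4.56) and *Cd209f* (3.95) among its nearest, and *C3ar1* had *Retnla* (4.13) and *Ccl12* (3.55). *Csf1r* had *Retnla* (3.65), *Cd209f* (3.07) and *Ccr2* (2.89), *Cd68* had *Cd209f* (2.83) and *Retnla* (2.69) among its nearest, and *Lyz2* had *Retnla* (3.27), *Cd209f* (2.53) and *Ccr2* (2.28). These ratios were taken over all 17 sections. *Ccl12* was below the highest negative control probe on 3 of the 4 slides, at 497 against 601, 1311 against 1332 and 2369 against 3654 transcripts.

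Cells were also given a class by marker genes that include none of the 9, which placed 343011 of 426404 cells. The myeloid class, set by *Ctss*, *Cd74* and 10 other markers, held 42003 cells, or 9.85% of cells. It held 41.1% (*Mgl2*) to 53.0% (*Ms4a7*) of the transcripts of each gene. The fibroblast class held a further 19.2% (*Cd68*) to 31.9% (*C1qa*), and the keratinocyte class 3.13% (*Lyz2*) to 14.4% (*Cd68*). Thus a large minority of macrophage transcripts lay in segmented cells classed as fibroblasts, and how far this reflects outlines that take in a neighbour's transcripts was not tested. Of all cells, 19.6% had no class and 7.17% of cells lay within 1 marker transcript of another class.

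At least 2 of the 9 genes were present in most myeloid-class cells and in few keratinocyte-class cells. In the myeloid class the share was 67.0% to 87.3% in Control skin, 69.2% to 94.4% in PITX1+ skin, 69.3% to 96.3% in buccal mucosa, 86.9% in the Control wound, and 81.5% and 86.0% in the PITX1+ wounds. In the keratinocyte class, which should lack them, it was 0.604% to 4.30% in Control skin, 1.14% to 4.08% in PITX1+ skin, 1.40% to 12.5% in buccal mucosa, 6.35% in the Control wound, and 6.52% and 8.04% in the PITX1+ wounds. The buccal range includes Buccal mucosa 3, which held only 24 cells of that class. Median transcripts per cell were 27 to 111.5 in the myeloid and 26 to 207 in the keratinocyte class over sections. *Cd68* was the gene found most often in keratinocyte-class cells of buccal mucosa. It was in 11.6% of those cells in the median section, beside 7.30% of all buccal cells and 32.5% of the myeloid class. The source of *Cd68* in those cells was not tested. The other 8 genes were in 0.0810% to 3.41% of buccal keratinocyte-class cells.

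*C3ar1* was the exception in Control skin. It was found in 3.26% of keratinocyte-class cells in the median Control section, against 4.78% of myeloid-class cells and 2.67% of all cells, so its level in Control skin lay close to the background. In PITX1+ skin these shares were 1.45%, 11.4% and 2.85%, and in the Control wound 1.88%, 40.8% and 11.3%. Median transcripts in the cells used were 26 to 32 in Control skin, 37 to 87 in PITX1+ skin and 58 in the Control wound. The shares are thus not matched for depth between groups. *Ms4a7* and *Pf4* were also rare in Control skin, in 3.86% and 2.39% of myeloid-class cells against 0.819% and 0.307% of keratinocyte-class cells. *Mgl2* was clear of it, in 49.8% of myeloid-class and 1.68% of keratinocyte-class cells in Control skin and in 35.0% and 1.35% in PITX1+ skin.

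Levels were compared as sums over each section, in CPM. Overlap between groups, here and below, was read for the 9 genes alone, and its share over the panel was not counted. There, fewer macrophages, less RNA per macrophage and more RNA of other cells cannot be told apart. Control and PITX1+ skin differed in 68 of 328 genes by edgeR with the slide as covariate, 20.7% of those tested, with 10.4% higher and 10.4% lower in PITX1+. Of the 9 genes, only *Mgl2* passed the adjusted threshold of 0.05, a share below that of the panel. The median log2 fold change of the 9 genes was -0.41, against -0.07 over all genes. Markers of other cell types moved as well. All 10 lymphoid markers were negative (median -0.95, 2 called lower), with a summed level of 806 to 4399 CPM in PITX1+ against 1780 to 6328 in Control skin. Of 4 muscle markers, 3 were called lower (median -1.71), with 7244 to 51138 CPM against 50375 to 57814. Of 10 fibroblast markers, 2 were called lower (median -0.59), with 48282 to 93791 CPM against 66264 to 143840. No marker of these lists was at 0, and their part in the result was not tested.

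*Mgl2*, a galactose-binding lectin of dermal macrophages and dendritic cells, fell. It measured 5345, 2912 and 2677 CPM in Control sections 1 to 3, and 1613, 1451, 1667 and 2323 CPM in PITX1+ sections 1 to 4. The groups did not overlap, and the highest value was in a female Control section. The means were 3645 ± 1478 (SD, n = 3) and 1764 ± 384 (SD, n = 4), and the edgeR log2 fold change was -1.14 ± 0.28 (SE), a 2.20-fold difference with an adjusted p of 0.0264. The change in section sums was -1.32 on the female and -0.72 on the male slide, where all 9 genes were lower and *Mgl2* the least. Within myeloid-class cells, a class set by other markers as above, *Mgl2* was 49681 and 35883 CPM in the female Control sections against 9823 and 6444 in PITX1+, but on the male slide it ran the other way, at 16672 CPM in Control against 22321 and 26207 in PITX1+. Among cells with at least 2 of the 9 genes, which *Mgl2* helped to choose, its share on the male slide was 29.7% in Control against 38.4% and 47.6%. Those cells held a median of 35 transcripts in Control against 57 and 97, so the shares are not matched for depth. *Mgl2* was found in 6.02% to 11.8% of cells in Control and 6.15% to 9.95% in PITX1+ skin, and after thinning to 20 transcripts in 4.44% to 8.15% and 3.12% to 4.35%. The call was lost when any of 5 sections was left out (adjusted p 0.0653 to 0.122), with male skin alone, without the slide as covariate (adjusted p = 0.110), with scaling by total transcripts (adjusted p = 0.0609) and with scaling by number of cells, where the value was 0.021.

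*C3ar1* was 743, 698 and 520 CPM in Control and 555, 378, 320 and 418 CPM in PITX1+ skin. The ranges overlapped only through the male Control section and PITX1+ section 1. Its log2 fold change of -0.70 ± 0.27 had an adjusted p of 0.103 in edgeR. *Csf1r* measured 5469, 2932 and 4326 CPM in Control and 3774, 3825, 1801 and 2198 in PITX1+ sections, with overlap and an edgeR log2 fold change of -0.66 ± 0.33 (adjusted p = 0.190).

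*C1qa*, which encodes a chain of the first complement component, was spread widely within each group. It measured 9225, 3498 and 5528 CPM in Control and 7004, 6290, 2797 and 3593 CPM in PITX1+ skin, with means of 6084 ± 2904 (SD, n = 3) and 4921 ± 2040 (SD, n = 4). The edgeR log2 fold change was -0.39 ± 0.37 with an adjusted p of 0.460. *Mrc1* measured 3606, 1955 and 5042 CPM in Control and 4150, 3712, 2281 and 2299 in PITX1+ skin, with a log2 fold change of -0.32 ± 0.42 and an adjusted p of 0.607 in edgeR. For neither gene did the groups separate.

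*Pf4*, *Ms4a7*, *Cd68* and *Lyz2* had 1 section in common that stood high. In Control skin 3, the male Control section, *Lyz2* reached 20579 CPM against 3672 and 2268 in the female Control sections and 4005 to 9753 in PITX1+ skin. *Pf4* reached 967 CPM there against 123 and 86.2 in the female Control sections, and in PITX1+ skin it was 107 and 91.0 (female) and 410 and 708 (male). *Cd68* was 2205 CPM there against 938 and 632, with 870 to 1439.6 in PITX1+ skin, and *Ms4a7* 965 against 324 and 213, with 285 to 452 in PITX1+ skin. The log2 fold changes were -0.20 (*Lyz2* and *Cd68*), -0.51 (*Pf4*) and -0.41 (*Ms4a7*), with adjusted p of 0.323 to 0.796 in edgeR. Without this section the male slide held no Control, so that fit rests on the female slide alone. There the log2 fold changes of *Lyz2*, *Cd68* and *Ms4a7* were positive, at 0.77, 0.51 and 0.75, as were those of *C1qa* (0.13) and *Mrc1* (0.55).

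**Figure D2:**
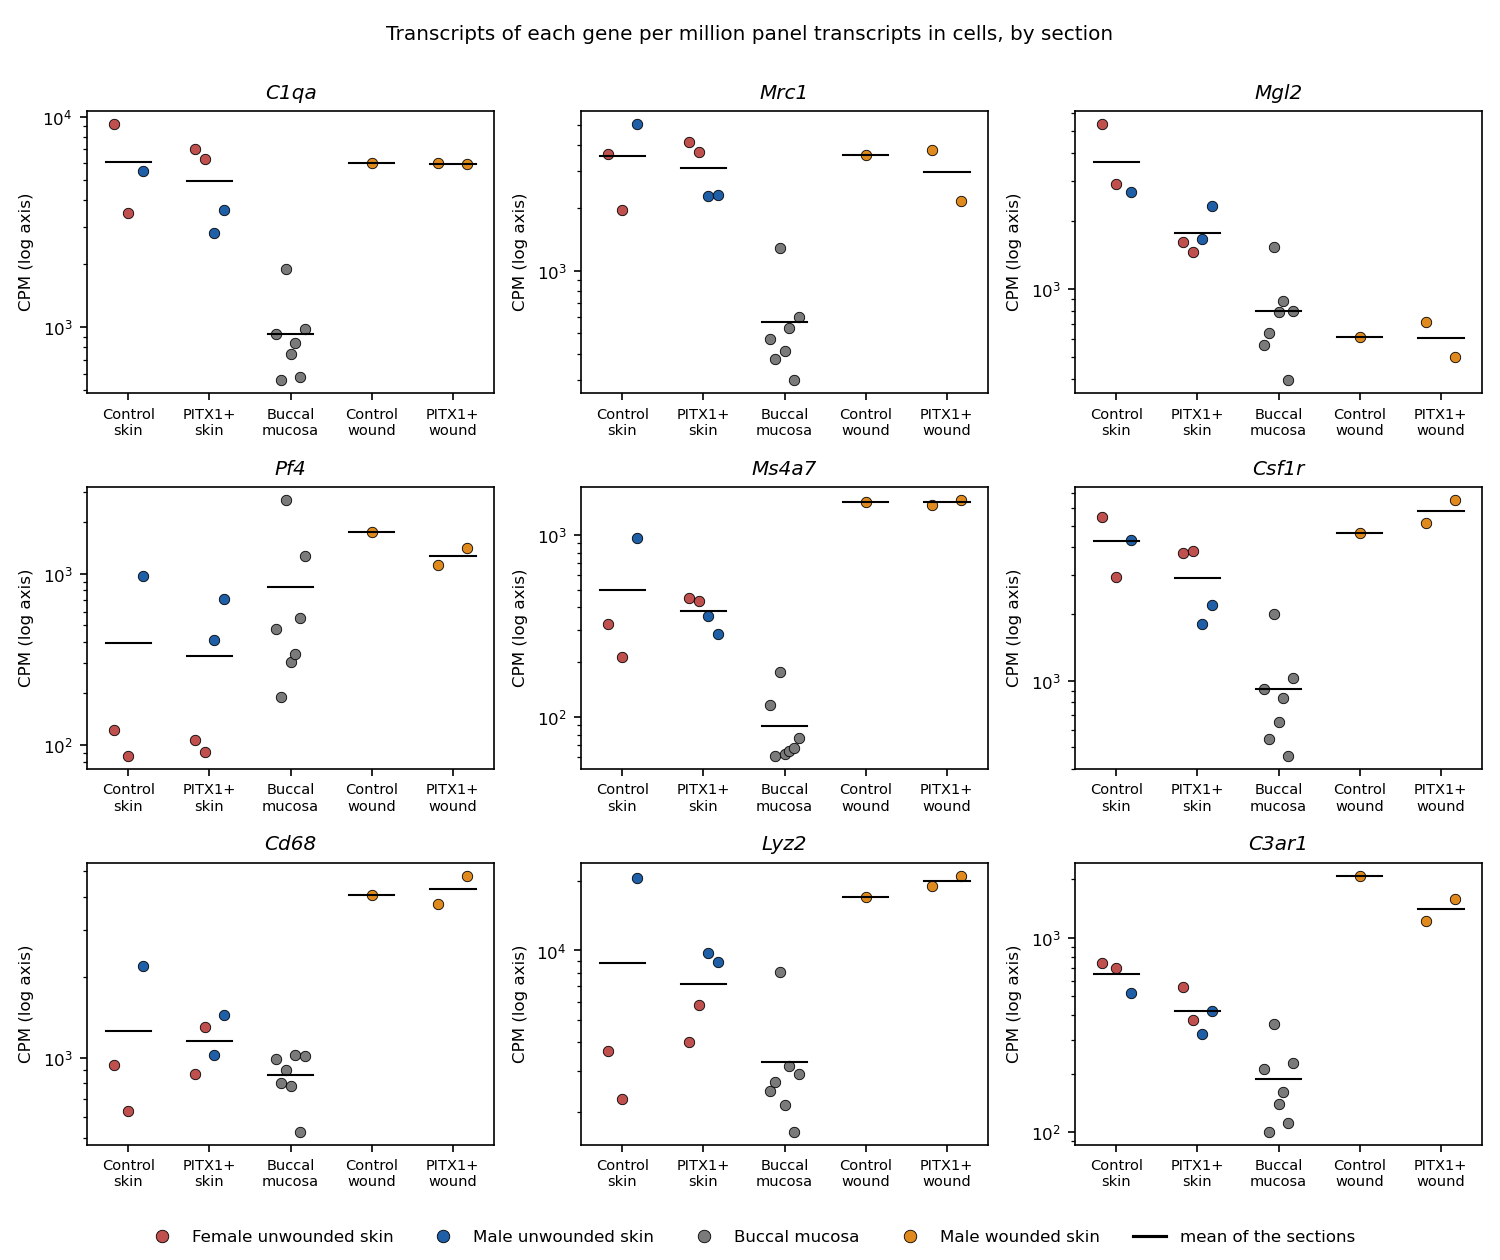
CPM of each of the 9 genes in every section (log axis), by group, with points coloured by slide and a line at the mean of the sections. Most genes are lowest in buccal mucosa, *C3ar1*, *Ms4a7* and *Cd68* are highest in the wounds, and *Mgl2* falls from Control skin to PITX1+ skin and is low in the wounds.

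The difference between PITX1+ and Control was also read on each slide. On the female slide the difference of mean log2 CPM was positive for *C1qa* (0.27), *Mrc1* (0.61), *Ms4a7* (0.79), *Cd68* (0.51) and *Lyz2* (0.79), with 2 sections a group. On the male slide, with 1 Control section, all 9 genes were lower in PITX1+, from -0.72 for *Mgl2* to -1.87 for *Ms4a7*. The test of the difference between slides called 18 genes, 5.49% of the panel, 4.27% as lower and 1.22% as higher on the male slide. It called *Ms4a7* (-2.68 ± 0.49, adjusted p = 0.0329), *Lyz2* (-2.25 ± 0.49, adjusted p = 0.0417) and *Mrc1* (-2.02 ± 0.45, adjusted p = 0.0417) in edgeR. The other 6 genes did not pass, with adjusted p from 0.138 for *Cd68* to 0.854 for *C3ar1*. Scaled by number of cells none of the 9 passed, and *Ms4a7*, *Lyz2* and *Mrc1* were at -1.39, -0.97 and -0.67 (adjusted p 0.240 to 0.534 in edgeR). Sex, slide and the single male Control section cannot be told apart here.

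Scaling each section by its number of cells, in place of transcripts, asks for a level per cell. That scaling moved the median of all genes from -0.07 to 1.16 between PITX1+ and Control, and it turned the sign of all 9 genes. Cells with none of the 9 genes held a median of 43 to 84 transcripts in PITX1+ and 24 to 30 in Control sections. *Mgl2* was then at 0.021, lowest of the 9, and *Cd68* and *Lyz2* were 1.11, close to the shift of all genes. Relative to that shift all 9 remained lower.

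As a share of panel transcripts, buccal mucosa held less of most of these genes than Control skin. Of the panel, 38.4% of genes passed the threshold, 17.1% as higher and 21.3% as lower in buccal mucosa. Of the 9 genes, 6 were lower (*C1qa*, *Mrc1*, *Mgl2*, *Ms4a7*, *Csf1r* and *C3ar1*) and none was higher. The median log2 fold change of the 9 was -1.68, against 0.14 over all genes. The 3 Control sections are those of the PITX1+ comparison, so these comparisons are not independent.

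*C1qa* had a lowest, median and highest value of 559, 842 and 1885 CPM in the 7 buccal sections, all below the lowest Control section at 3498. The edgeR log2 fold change was -2.20 ± 0.31, a 4.60-fold difference with an adjusted p of 0.000528. *Mrc1* had 299, 470 and 1291 CPM, below the lowest Control value of 1955, and was 4.49-fold lower (log2 fold change -2.17 ± 0.33, adjusted p = 0.000832 in edgeR). For both genes the highest buccal section was Buccal mucosa 3, and no buccal section reached Control skin.

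*Csf1r* had 457, 833 and 1995 CPM in buccal mucosa and was 3.33-fold lower than in Control skin (log2 fold change -1.74 ± 0.31, adjusted p = 0.00188 in edgeR). *Mgl2* had 395, 789 and 1533 CPM and was 3.20-fold lower (log2 fold change -1.68 ± 0.32, adjusted p = 0.00263 in edgeR). *Ms4a7* had 61.1, 67.8 and 176 CPM and was 3.95-fold lower (log2 fold change -1.98 ± 0.42, adjusted p = 0.00422 in edgeR). None of these genes overlapped between the groups, though the share of panel genes without overlap was not counted. *C3ar1* had 101, 162 and 359 CPM, also without overlap, with a log2 fold change of -1.33 ± 0.31 (adjusted p = 0.00668 in edgeR), a call lost without Buccal mucosa 1 (adjusted p = 0.0609) or 2 (0.0973). Its Control level lay close to the keratinocyte-class background, so this is a difference of section sums. Among cells with at least 2 of the 9 genes, which *C3ar1* helped to choose, it was in 8.51% to 19.1% in buccal mucosa against 7.66% to 9.16% in Control skin. Those cells held a median of 58.5 to 119 transcripts in buccal and 34 to 35 in Control sections, so these shares are not matched for depth.

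*Pf4*, *Cd68* and *Lyz2* went differently. *Pf4* had 191, 477 and 2699 CPM in buccal mucosa, of which 2 sections exceeded every Control section, and its log2 fold change was 1.44 ± 0.86 (adjusted p = 0.196 in edgeR). Without Control skin 3 it was 3.31 with an adjusted p of 0.0165 in edgeR, but that fit sets it against the 2 female Control sections alone, where *Pf4* lay within the range of the background probes, so neither the size nor the call is read as a measured difference. *Cd68* had 526, 895 and 1019.97 CPM against 632 to 2205 in Control skin, with a log2 fold change of 0.05 ± 0.40 (adjusted p = 0.920 in edgeR). As given above, buccal *Cd68* was found more often in keratinocyte-class cells than in all cells. Its buccal sums, under either scaling, are thus not a level of macrophages alone. *Lyz2* had 1635, 2695 and 8052 CPM, with a log2 fold change of -0.96 ± 0.58 (adjusted p = 0.200 in edgeR) that was 0.58 without Control skin 3. The groups overlapped for these 3 genes. Scaled by number of cells, where the median of all genes was 1.35, the 6 lower genes kept their sign at -0.98 (*C1qa*) to -0.031 (*C3ar1*) and none passed (adjusted p 0.106 to 0.967 in edgeR), while *Pf4* (2.90, adjusted p = 0.0181) and *Cd68* (1.47, adjusted p = 0.0474) passed as higher.

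With male skin alone, chosen after the data had been seen, the buccal comparison rests on Control skin 3, a lone section assumed to vary as the buccal sections do. It called 23 genes of the panel, among them *C1qa* (-2.06, adjusted p = 0.0112), *Mrc1* (-2.67, adjusted p = 0.00520), *Ms4a7* (-2.91, adjusted p = 0.00199) and *Lyz2* (-2.17, adjusted p = 0.0311) in edgeR. *Mgl2* (-1.21, adjusted p = 0.163), *Csf1r* (-1.75, adjusted p = 0.0507) and *C3ar1* (-0.96, adjusted p = 0.247) kept their direction and missed the threshold. Lymphoid markers were also lower in buccal mucosa, 7 of 10 by edgeR, with a summed level of 409 to 865 CPM against 1780 to 6328 in Control skin and no marker at 0. Of 3 mast markers 2 were lower (median -1.58), with 1 at 0 in at least 1 buccal section. Vascular markers moved the other way, 4 of 7 higher and 1 lower (median 1.66), with 6604 to 43970 CPM against 5894 to 9112, and the 4 gland markers had a median of 3.48 with 1 called. Gland markers summed to 67011 CPM in Buccal mucosa 6. The other buccal sections had 457 to 3840 CPM, overlapping Control skin at 219 to 2936. The part of these in the result was not tested.

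PITX1+ skin also stood above buccal mucosa for some of these genes. Of the panel, 36.3% passed the threshold, 24.4% as higher and 11.9% as lower in PITX1+ skin. Of the 9 genes, 4 were higher: *Mrc1* (2.16 ± 0.40 on the log2 scale, adjusted p = 0.00152), *C1qa* (2.11 ± 0.39, adjusted p = 0.00152), *Ms4a7* (1.80 ± 0.37, adjusted p = 0.00265) and *Csf1r* (1.37 ± 0.41, adjusted p = 0.0196), all by edgeR. The groups did not overlap for *Mrc1*, *C1qa* and *Ms4a7*, again without a count over the panel. The *Csf1r* call was lost without PITX1+ section 1, 2 or 3 (adjusted p 0.0566 to 0.0709). *Mgl2* (0.80, adjusted p = 0.0871), *C3ar1* (0.86, adjusted p = 0.0939) and *Lyz2* (0.76, adjusted p = 0.182) did not pass in edgeR, and all 3 passed without Buccal mucosa 3, at 1.01, 1.07 and 1.13. *Pf4* was -1.69 ± 0.81 (adjusted p = 0.119 in edgeR) and *Cd68* 0.08 ± 0.28 (adjusted p = 0.823), with the limit on buccal *Cd68* given above. This comparison shares its buccal sections and its PITX1+ sections with the others. Markers of other cell types moved with it. All 10 lymphoid markers were positive and 4 called (median 1.33), at 806 to 4399 CPM in PITX1+ skin against 409 to 865, and 2 of 3 mast markers were higher (median 2.20). Of 7 vascular markers 4 were lower (median -1.54), at 6387 to 8918 CPM against 6604 to 43970, and the 4 muscle markers were negative with none called (median -1.47). Their part in the result was not tested.

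Day 4 wounds were compared with male unwounded skin, with condition as covariate. *C3ar1*, *Ms4a7* and *Cd68* rose and *Mgl2* fell. Of the panel, 31.1% of genes passed the threshold, 22.9% as higher and 8.23% as lower in wounds. The median log2 fold change of the 9 genes was 1.19, against 0.03 over all genes.

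*C3ar1* was 2082 CPM in the Control wound and 1221 and 1571 CPM in the PITX1+ wounds, against 520 CPM in the male Control section and 320 and 418 CPM in the male PITX1+ sections. Every wound exceeded every unwounded section, and the edgeR log2 fold change was 2.06 ± 0.37, a 4.17-fold rise with an adjusted p of 0.00677. *Ms4a7* was 1508, 1457 and 1558 CPM in the wounds against 965, 359 and 285 CPM, a 3.55-fold rise (1.83 ± 0.49, adjusted p = 0.0289 in edgeR). *Cd68* was 4084, 3757 and 4822 CPM against 2205, 1021 and 1439.6, a 3.06-fold rise (1.61 ± 0.40, adjusted p = 0.0215 in edgeR). The calls of *Ms4a7* and *Cd68* were lost without PITX1+ section 3 or 4 or PITX1+ wound 1 or 2, while that of *C3ar1* was kept without any 1 section. *C3ar1* was found in 11.3% of cells of the Control wound and 7.59% and 8.84% of those of the PITX1+ wounds, or 4.68%, 2.83% and 3.16% after thinning.

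*Mgl2* ran the other way. It was 614 CPM in the Control wound and 712 and 502 in the PITX1+ wounds, against 2677 in the male Control section and 1667 and 2323 in the male PITX1+ sections. No wound reached an unwounded section, and the edgeR log2 fold change was -1.76 ± 0.36, a 3.39-fold fall with an adjusted p of 0.00960. The call was kept without any 1 section.

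The other 5 genes did not pass in edgeR. Lack of overlap among them is given as a description, since it was not counted over the panel. *Pf4* was 1762, 1125 and 1407 CPM in the wounds against 967, 410 and 708, without overlap (1.19 ± 0.40, adjusted p = 0.0581). *Csf1r* was 4637, 5122 and 6534 CPM against 4326, 1801 and 2198, without overlap (1.19 ± 0.45, adjusted p = 0.0776), and *C1qa* 6021, 5994 and 5938 CPM against 5528, 2797 and 3593, without overlap (0.75 ± 0.35, adjusted p = 0.138). *Lyz2* was 16974, 19052 and 21121 CPM against 20579, 9753 and 8943, and *Mrc1* 3567, 3780 and 2161 against 5042, 2281 and 2299, both with overlap and adjusted p of 0.195 and 0.756. Leaving out Control skin 3 or the Control wound brought *C1qa*, *Pf4*, *Csf1r* and *Lyz2* past the threshold as well. With condition as covariate, both fits rest on the PITX1+ wounds against the male PITX1+ sections alone, so they are not separate checks. Scaled by number of cells, none of the 9 passed.

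Markers of other cell types moved with the wounds. All 5 neutrophil markers rose, with a summed level of 13014 CPM in the Control wound and 14977 and 24947 in the PITX1+ wounds, against 480 to 1729 in PITX1+ and 700 to 986 in Control unwounded skin, and none was at 0. Lymphoid markers (5 of 10 higher, median 1.65), B and plasma cell markers (3 of 4 higher, median 2.20) and mast markers (2 of 3 higher and 1 lower, median 2.31) moved as well. At least 2 of the 9 genes were held by 14.2% of neutrophil-class cells in the Control wound and by 29.2% and 37.3% in the PITX1+ wounds. The neutrophil class held 2.89% of all *Lyz2* transcripts, 4.66% of *Cd68* and 1.60% of *C3ar1* over all sections. These shares include the unwounded sections, where neutrophil markers were far lower, so they do not give the shares in wounds. The part of these cell types in the rise of the section sums was not tested.

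Within the myeloid class *C3ar1* was 10600 CPM in the Control wound and 5334 and 5289 CPM in the PITX1+ wounds, against 3595 CPM in the male Control section and 3442 and 4243 in the male PITX1+ sections. *Mgl2* within that class was 2084, 2758 and 1251 CPM in the wounds against 16672, 22321 and 26207 in the male unwounded sections. Both genes thus ran the same way among myeloid-class cells alone. *C1qa* within that class was 25352, 26504 and 16837 CPM in the wounds against 33569, 34944 and 36354, the opposite order to its section sums.

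The 1 Control wound was set beside the 2 PITX1+ wounds without a test. With a 95% Poisson interval of 2013 to 2154 CPM, which covers counting error only, *C3ar1* was higher in the Control wound than in either PITX1+ wound. *Pf4* likewise stood higher, with an interval of 1698 to 1828. *Csf1r* (4533 to 4743) and *Lyz2* (16774 to 17176) were lower in the Control wound than in either PITX1+ wound. *C1qa* (5902 to 6141) and *Ms4a7* (1449 to 1569) had both PITX1+ wounds inside the interval of the Control wound, and for *Mrc1*, *Mgl2* and *Cd68* the PITX1+ wounds lay on either side of it.

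**Figure D3:**
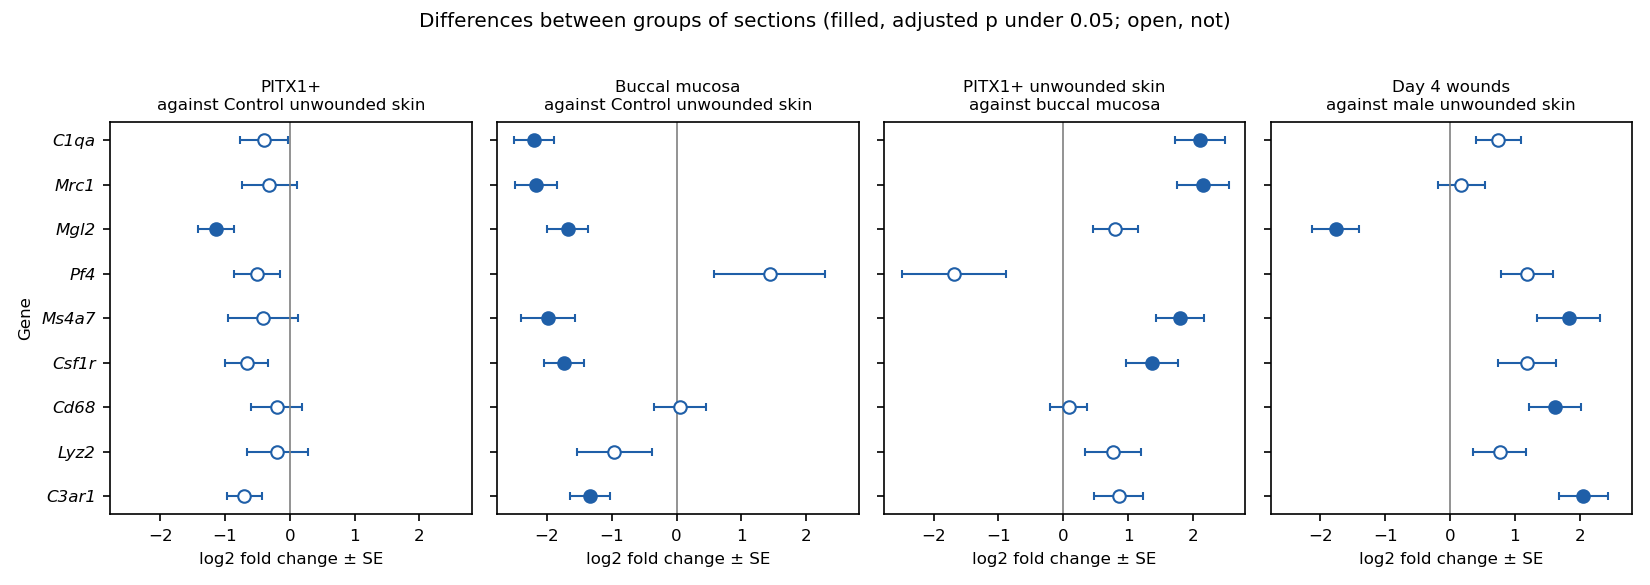
Log2 fold change with its standard error (horizontal axis) for each of the 9 genes in 4 comparisons, by edgeR on section sums; filled points passed an adjusted p of 0.05 and open points did not. *Mgl2* is the filled point below 0 for PITX1+ skin (-1.14) and for wounds (-1.76), and *C3ar1* is highest in wounds (2.06).

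A further 31 genes of myeloid cells and macrophage states were read on the same sums. In PITX1+ against Control skin 1 was higher, the matrix protein *Spp1* (1.15, adjusted p = 0.0409), and 2 were lower, the *Csf1r* ligand *Il34* (-1.43, adjusted p = 0.00980) and the invariant chain *Cd74* (-1.15, adjusted p = 0.0212), in edgeR. Over the panel 10.4% of genes were called in each direction. With each of the 7 sections left out in turn the direction held, but the call was lost in 6 fits for *Spp1*, 5 for *Cd74* and 2 for *Il34*. In buccal mucosa against Control skin 13 of the 31 were lower and 4 higher, beside 21.3% and 17.1% of the panel. Among the 13 were the elastase *Mmp12* (-3.44, adjusted p = 0.00115), the chemokine *Ccl8* (-2.56, adjusted p = 0.0153) and the cytokine *Il1b* (-2.06, adjusted p = 0.0198) in edgeR. *Mmp12* had 236 transcripts on the buccal slide against 151 for its highest negative control probe. Its sizes in comparisons with buccal mucosa, here and below, are thus poorly fixed. The macrophage inflammatory chemokines *Ccl3* and *Ccl4* were also called lower, but they collected 49 and 40 transcripts on the buccal slide, below its highest negative control probe at 151, so no size is given for them. *Ccl4* was below the highest probe on both unwounded skin slides as well, at 895 against 1332 and 58 against 601, and no direction is read for it. The chitinase-like protein *Chil3* (5.27, adjusted p = 0.00822), the arginase *Arg1* (3.28, adjusted p = 0.0288), *Retnla* (1.88, adjusted p = 0.0219) and *Gm2a* (1.72, adjusted p = 0.0153) rose, and *Chil3*, *Arg1* and *Retnla* are known from alternatively activated macrophages although other cells make them too. Buccal mucosa 3 went apart for the first 2, with 176 CPM of *Arg1* against 1144 to 1480 in Control skin and 257 of *Chil3* against 234 to 307, and the *Arg1* call was lost without any 1 of the Control sections (adjusted p 0.0833 to 0.103 in edgeR). *Chil3* was found in 1.86% to 6.38% of buccal cells with at least 2 of the 9 genes. PITX1+ skin against buccal mucosa had 10 of the 31 higher and 4 lower, beside 24.4% and 11.9% of the panel. Among the 10 were *Mmp12* (5.80, adjusted p = 0.00115) and, with the limit given above, *Ccl3*, in edgeR. The 4 were led by *Chil3* (-5.54, adjusted p = 0.00174) and *Retnla* (-2.20, adjusted p = 0.0382) in edgeR. The *Mmp12* value rested on the female slide, with 3098 and 7889 CPM in the female PITX1+ sections against 206 and 180 in the male ones, and with male skin alone it was 1.79 (adjusted p = 0.102 in edgeR).

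In wounds 20 of the 31 rose and 1 fell, beside 22.9% and 8.23% of the panel. *Spp1* was 6544, 3765 and 9612 CPM in the wounds against 35.8, 124 and 128 CPM in male unwounded skin, a log2 fold change of 6.41 (adjusted p = 0.000623 in edgeR). Its 734 transcripts on the male unwounded slide lay little above the highest negative control probe (601), so that size is poorly fixed. *Il1b* (4.60, adjusted p = 0.00126) and *Mmp12* (4.31, adjusted p = 0.00373) rose too in edgeR. *Ccl3* and *Ccl4* were called higher, with 38302 and 6788 transcripts on the wounded slide against 449 and 58 on the male unwounded slide, where both were below the highest negative control probe (601), so no size is given. *Il1b* is also a neutrophil marker here. *Retnla* was 81.3, 131 and 25.8 CPM in the wounds and was called lower (adjusted p = 0.00980 in edgeR). Its 710 transcripts there were below the highest probe of that slide (3654), so no size is given for it either.

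Cells with at least 2 of the 9 genes were counted next. They made up 16.2%, 8.25% and 17.8% of cells in Control sections 1 to 3 and 20.2%, 20.8%, 13.9% and 18.4% in PITX1+ sections 1 to 4. After thinning to 20 transcripts these were 11.3%, 5.12% and 14.2%, and 13.2%, 12.2%, 8.15% and 9.19%. The ranges of Control and PITX1+ skin overlapped by both counts. In buccal mucosa the share was 5.94% to 15.4% (median 10.7%) and 1.89% to 6.56% (median 3.91%) after thinning. It was 33.4% in the Control wound and 34.5% and 40.9% in the PITX1+ wounds, and 21.4%, 21.1% and 21.8% after thinning, by both counts above every unwounded section. Over all cells, shallow ones included, the PITX1+ wounds stayed above, at 23.9% and 33.2%, while the Control wound had 17.9%, below PITX1+ section 2 (20.1%). Median transcripts in these cells were 32 to 119 over sections, and 24 to 122 in cells with none of the genes.

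Per unit of tissue area the order was different. Control sections held 468, 181 and 420 such cells per mm², PITX1+ sections 1188, 1324, 704 and 733, buccal sections 314 to 585 and wounds 1496, 2187 and 3655. PITX1+ skin lay above Control skin in every section although the shares overlapped. All cells with at least 10 transcripts were denser there too, at 5891, 6361, 5079 and 3994 per mm² in PITX1+ sections against 2882, 2194 and 2359 in Control sections.

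**Figure D4:**
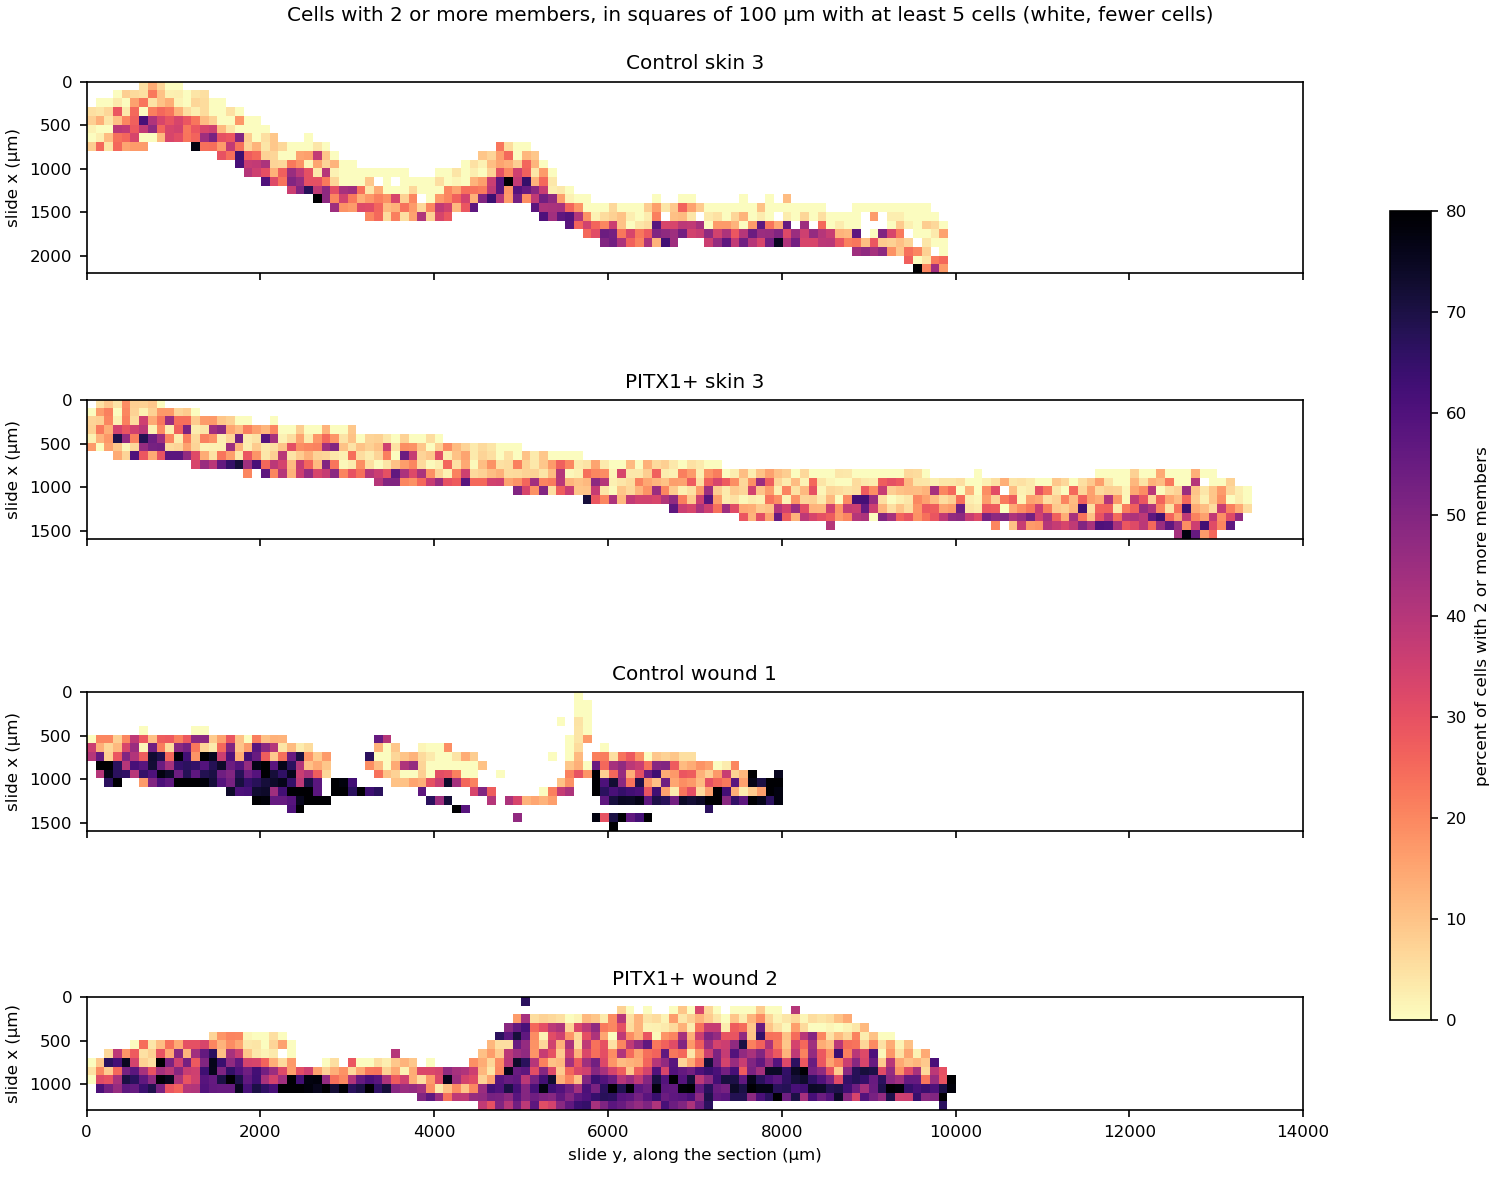
Percent of cells with at least 2 of the 9 genes (colour) in squares of 100 µm with at least 5 cells, along Control skin 3, PITX1+ skin 3, Control wound 1 and PITX1+ wound 2; axes are slide positions in µm. Over the whole sections the shares were 17.8%, 13.9%, 33.4% and 40.9%.

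Outside the keratinocyte class, these cells lay farther from keratinocyte-class cells in PITX1+ skin than cells with none of the genes. In every section they lay near each other more often than cells with none did. For the distance, keratinocyte-class cells were left out of both sets. In PITX1+ section 1 this kept 10562 of 11545 cells with at least 2 of the genes. The median distance to the nearest keratinocyte-class cell was 33.9, 59.5, 37.1 and 62.5 µm in PITX1+ sections, against 16.5 to 31.7 µm for cells with none of the 9 genes. In Control skin it was 66.3, 55.7 and 136 µm against 50.6, 63.4 and 75.9 µm, so that Control section 2 went the other way. In buccal mucosa it was 39.8 to 162 µm against 50.9 to 175 µm. In wounds it was 73.9, 44.4 and 58.0 µm against 66.5, 32.0 and 44.0 µm. The next measure kept keratinocyte-class cells among the cells with at least 2 of the genes. Another cell with at least 2 of the genes lay within 20 µm of 52.6%, 29.0% and 58.6% of them in Control skin, 72.3% to 88.0% in PITX1+ skin, 57.4% to 79.5% in buccal mucosa, and 89.2% to 97.7% in wounds. For cells with none of the genes the shares were lower in each section, at 16.9% to 35.5%, 29.5% to 53.6%, 25.5% to 44.1% and 51.0% to 70.6% in these groups. How far outlines that take in a neighbour's transcripts add to this nearness was not tested.

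The makeup of the cells with at least 2 of the genes differed by tissue and by slide, as a description, since the genes chose the cells. Shares here are not matched for depth. Median transcripts in these cells were 34 to 35 in Control skin, 32 to 97 in PITX1+ skin, 58.5 to 119 in buccal mucosa and 66 to 76 in wounds. *Mgl2* was in 54.1%, 52.4% and 29.7% of them in Control skin, in 23.6% to 47.6% in PITX1+ skin and in 29.9% to 48.5% in buccal mucosa, but in 8.63%, 10.2% and 5.48% in wounds. *C3ar1* was in 7.66% to 9.16% in Control skin, 6.996% to 15.8% in PITX1+ skin, 8.51% to 19.1% in buccal mucosa, 31.2% in the Control wound, and 20.2% and 20.6% in the PITX1+ wounds, so that the PITX1+ wounds lay close to the highest buccal sections. *Ms4a7* was in 4.53% to 13.9% in Control skin, 9.22% to 13.9% in PITX1+ skin, 4.72% to 13.7% in buccal mucosa, and 25.7%, 23.2% and 20.2% in wounds. *Lyz2* was in 46.1% and 45.8% in the female Control sections and 51.7% and 64.7% in the female PITX1+ sections, but in 88.5% to 91.1% in the male sections. *Pf4* was in 14.7% to 23.5% on the male slide and in 1.92% to 2.25% on the female slide, where it lay within the range of the background probes.

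**Figure D5:**
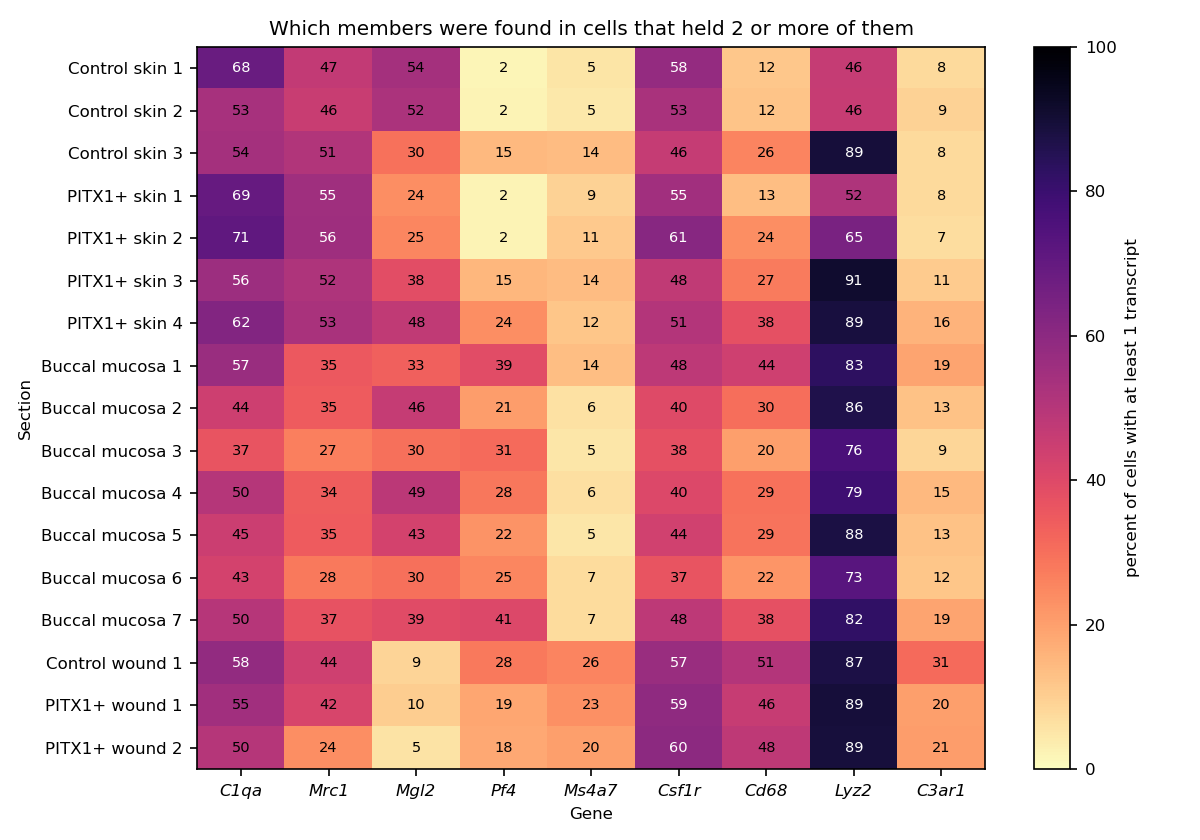
Percent of cells with at least 2 of the 9 genes that held each gene (colour and printed values), by section. *Mgl2* is lowest in the 3 wounds (5.48% to 10.2%), and *Lyz2* and *Pf4* are lower on the female slide (Control skin 1 and 2, PITX1+ skin 1 and 2) than on the male slide.

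Other genes were then tested in these cells, without the 9 that chose them. Between PITX1+ and Control skin edgeR called 0 of 319 genes (0%), with 59 at an unadjusted p under 0.05, and DESeq2 called 30. *Mmp12* was found in 13.6% and 29.1% of these cells in the female PITX1+ sections against 6.11% and 4.32% in the female Control sections, and in 3.49% and 4.11% against 0.841% on the male slide. Between buccal mucosa and Control skin edgeR called 71 of 293 genes (24.2%), 12.3% as higher and 11.9% as lower. Of 29 myeloid and state genes tested there, *Arg1* (4.22, adjusted p = 0.0252) and *Retnla* (2.03, adjusted p = 0.0341) were higher and *Mmp12* (-2.39, adjusted p = 0.0106), *Cd209f* (-1.56, adjusted p = 0.0280) and *Cxcl16* (-1.25, adjusted p = 0.0341) lower in edgeR. The calls of *Arg1* and *Mmp12* were lost without Control skin 1 or 2. *Arg1* was found in 1.60% to 7.50% of these cells in 6 buccal sections and in 25.1% in Buccal mucosa 6, so that a small share of cells carried its level, and at 318 CPM Buccal mucosa 3 lay within the Control sections (69.9 to 895 CPM). *Retnla* was found in 19.7% to 47.5% of these cells in buccal mucosa, 4.12% to 9.80% in Control skin and 0.238% to 1.49% in wounds. *Spp1* was found in 20.7%, 18.2% and 35.5% in wounds, against 0.0885% to 0.782% in Control skin. *Il1b* was found in 20.7%, 28.6% and 42.5% in wounds and 0.575% to 1.44% in Control skin. Keratinocyte markers differed in the same cells, 2 higher and 6 lower of 18 in buccal mucosa, and *Krt5* was found in 1.77% to 23.4% of them over sections, and the part of neighbouring cells' transcripts in these sums was not tested.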

How the data were processed

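Per the file headers, the authors deposited, for each of the 4 slides, decoded transcripts and a cell table as the instrument wrote them, with counts per cell, quality score, positions (µm) and a nucleus mark as other quantities, without normalization. The software version is not given in the sources used here. Transcripts scoring 20 or more in quality were counted. Cells within 100 µm (wounds 200 µm) were chained, groups of at least 2000 cells were kept, and conditions followed order along the slide, agreeing with the nearest listed cell total in 14 of 14 unwounded sections. The members and gene lists were chosen with earlier results of these data known. Section sums were fitted over all panel genes in edgeR 4.0.16 (R 4.3.3; filterByExpr, TMM, glmQLFTest, Benjamini-Hochberg, threshold 0.05), tested on simulated data, with DESeq2 1.42.0 as an alternative. Python 3.11.15, numpy 2.4.6, pandas 2.3.3 and scipy 1.17.1 were used. A class needed at least 2 different markers, ties unassigned. The genes named were the 9, the 3 nearest to each by co-detection, and up to 5 of the 31 listed state genes in each direction past the threshold; results for some of these are not reported here. Areas were counted in occupied squares of 50 µm. Deeper sections carry less counting error. The alternatives were library size, number of cells, no filter on genes, cells with at least 10 transcripts, any quality, transcripts over the nucleus, no covariate, DESeq2, stricter class and member rules, and each section left out.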

Additional observations from a re-analysis of the deposited data

Results flagged for a closer look

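Buccal mucosa 3 stood apart from the other 6 buccal sections for 5 of the 9 genes, each time as the highest value. It had 1885 CPM of *C1qa*, 1291 of *Mrc1*, 2699 of *Pf4*, 1995 of *Csf1r* and 8052 of *Lyz2*. Its gap to the next section, over the whole range, exceeded Dixon's 95% critical value in each case. In all, 20 groups were tested and 5 exceeded it, where chance gives about 1 in 20 for independent tests. All 5 come from this 1 section and share its total, so they are not separate events. The section held 136365 transcripts and 24 keratinocyte-class cells, and the part of its epithelial content in these levels was not tested.

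The PITX1+ effect differed between the male and the female slide by the interaction test in edgeR for 4 of the genes read here. On the log2 scale the male effect minus the female effect was -2.68 for *Ms4a7* (adjusted p = 0.0329), -2.25 for *Lyz2* (adjusted p = 0.0417), -2.02 for *Mrc1* (adjusted p = 0.0417) and -2.36 for the protease *Ctss* (adjusted p = 0.0417). The male effect rests on 1 Control section, and scaled by number of cells none of these 4 calls was kept.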

How the results depend on the processing

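No paired analysis was possible because each slide carries only the number 1 and sections are unnumbered in the labels. Setting aside leave-one-out fits, 445 values for single genes kept direction and side of the threshold, 63 lost the threshold, 8 gained it and 23 turned, while 90 counts and group values held and 27 moved. PITX1+ against Control called 122 genes (members 0, other myeloid genes 15) scaled by number of cells, 8 (0, 0) without covariate and 0 (0, 0) with male skin only; members 0 by library size; other myeloid genes 6 in DESeq2. By number of cells the signs turned for *C1qa* (0.84), *Mrc1* (0.95), *Mgl2* (0.021), *Pf4* (0.78), *Ms4a7* (0.87), *Csf1r* (0.60), *Cd68* (1.11), *Lyz2* (1.11), *C3ar1* (0.52) and *Cd74* (0.073), with the median of all genes at 1.16. In buccal mucosa against Control, *Cd68* turned to -0.55 (library size), -0.0056 (DESeq2), -0.0044 (at least 10 transcripts), -0.19 (any quality), -0.36 (nucleus) and -0.74 (male skin only), *Lyz2* to 0.45 by number of cells (2 members called, *Pf4* and *Cd68*), and male skin only called 23 genes (2 other myeloid). In PITX1+ against buccal mucosa, *Cd68* turned to -0.27 (number of cells) and -0.26 (DESeq2), and male skin only called 63 genes (5 other myeloid). Wounds by number of cells called 60 genes and 0 members. The difference between slides by number of cells called 0 members and 0 other myeloid genes, with *C1qa* 0.15, *Pf4* 0.33, *Csf1r* 0.0064 and *C3ar1* 1.15. In cells with members, PITX1+ against Control called 2 genes with at least 3 members and 30 in DESeq2 (6 other myeloid); buccal against Control called 109 in DESeq2 (11) and 15 with male skin only (3).

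With each section left out, PITX1+ against Control called 14 to 85 genes, 0 to 1 members and 0 to 7 other myeloid genes, with *C1qa* -0.65 to 0.13, *Mrc1* -0.59 to 0.55, *Ms4a7* -0.75 to 0.75, *Cd68* -0.42 to 0.51 and *Lyz2* -0.47 to 0.77. The highest of these values come from the fit without Control skin 3, which rests on the female slide alone. Buccal mucosa against Control called 76 to 177 genes and 7 to 20 other myeloid genes, with *Cd68* -0.23 to 0.71 and *Lyz2* -1.40 to 0.58. PITX1+ against buccal mucosa called 3 to 7 members, with *Cd68* -0.39 to 0.17. Wounds called 50 to 130 genes and 2 to 8 members, with *Mrc1* -0.19 to 0.53. For wounds, the fits without a Control section rest on PITX1+ sections alone. In cells with members, PITX1+ against Control called 0 to 28 genes (0 to 6 other myeloid) and buccal against Control 17 to 123 (0 to 11). The causes were not tested. Male skin only was chosen after the data had been seen. Levels of *Pf4* on the female slide are limited by the background probes. Levels in sections with few transcripts, such as the Control sections and Buccal mucosa 3, are limited by depth.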
